A study of Danio rerio with 9 samples.

Results

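The genes described here encode parts of the spliceosome and the splicing factors that work with it, measured in single primordial germ cells (PGCs) of zebrafish embryos. Members were all genes of the deposited table whose symbol begins with snrp, with sf3a or sf3b, or with srsf, lsm or prpf followed by a digit. The rule found 66 rows with 65 symbols among 32266 genes, because srsf3a is listed under 2 gene identifiers. By symbol they fell into the Sm core (8 genes), the LSm ring (7 genes), other LSm genes (7 genes), proteins of the U1 and U2 particles (4 genes), SF3 subunits (9 genes), PRPF genes (13 genes) and SR genes (18 genes).

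Introns are removed from pre-mRNA by small nuclear ribonucleoproteins (snRNPs), in which a ring of Sm proteins is loaded onto the U1, U2, U4 or U5 snRNA and a ring of LSm proteins onto U6. The U1 snRNP recognises the start of an intron, the U2 snRNP with its SF3 subunits recognises the branch point, and the PRPF proteins of the U4/U6 and U5 snRNPs bring in and activate the catalytic core. SR proteins bind exons through RNA recognition motifs and recruit these particles, and their levels influence which exons are used. Early zebrafish PGCs live largely on mRNA laid down by the mother, which is gradually replaced by their own transcripts.

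The 3 groups compared were PGCs at 6 hpf (hours post fertilization, shield stage), at 11 hpf (3-somite stage) and at 24 hpf (prim-5 stage), each with 3 cells named here by stage and number (6_1 to 24_3). All embryos were of the AB strain and carried the transgene kop-egfp-nanos3-3ʹUTR, whose green fluorescence was used to pick PGCs by hand, so no group lacked it. The 3 cells of a stage came from 1 embryo, which at 24 hpf was first trimmed of head, tail and yolk and then minced. The study followed how the PGC transcriptome changes over this period. Each cell gave its own whole-transcript library (Smart-seq2), and the values are FPKM, fragments scaled by transcript length and by the total of the library, so levels of different genes can be set side by side per length. FPKM is relative to the other transcripts of the same cell, so a higher value of a gene and lower values of other genes cannot be told apart. Because a stage is 1 embryo, no difference between stages was tested, and the spread over 3 cells describes cells of 1 embryo only. The difference of a gene is log2(mean FPKM + 1) of the later stage minus log2(mean FPKM + 1) of the earlier one. The spread beside it combines the SDs of log2(FPKM + 1) over the cells of both stages as the square root of their summed squares.

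A gene was kept when its FPKM reached 1 in at least 3 of the 9 cells, which 9329 genes did, 64 members among them. The members not kept were srsf7b, which was listed at 0 in 7 cells and had 4.45 FPKM in cell 24_1 and 12.5 FPKM in cell 24_2, and the srsf3a row ENSDARG00000100815, whose highest value was 0.152 FPKM. Per cell, the FPKM values added up to 548917 at least and 613048 at most. Of 14 germline marker genes, between 9 and 12 reached 10 FPKM in each cell, and ddx4 (vasa) had 603, 569 and 435 FPKM at 6 hpf, 695, 739.8 and 383 FPKM at 11 hpf and 278, 245 and 157 FPKM at 24 hpf. Markers of other cell types were also present in some cells. Of 18 rows of muscle markers 7 reached 10 FPKM in cell 24_1 and 9 in cell 24_2, against 0 in cell 24_3 and at most 1 in any cell at 6 or 11 hpf. Their summed level was 636, 2523 and 11.0 FPKM in cells 24_1, 24_2 and 24_3, and in the cells of 6 and 11 hpf it lay between 0 and 25.9 FPKM, with 16 to 18 of the 18 rows listed at 0. Of 7 epidermis markers 6 reached 10 FPKM in cell 11_1, against 1 to 3 in the other cells. Their summed level was 440.4 FPKM in cell 11_1 and 285 FPKM in cell 24_1, and between 60.6 and 189 FPKM elsewhere. Much of this was epcam, which had between 60.6 and 261 FPKM in every cell. It was the only epidermis marker above 0 in cells 6_2, 6_3 and 24_2. The keratin gene krt4 had 122 FPKM in cell 11_1, 187 FPKM in cell 24_1 and at most 10.6 FPKM in the other cells. Of 7 neural markers at most 2 reached 10 FPKM in any cell, with summed levels between 0 and 26.5 FPKM at 6 and 11 hpf and of 61.0, 98.2 and 42.0 FPKM at 24 hpf, where stmn1b had 61.0 FPKM in cell 24_1 and 73.0 FPKM in cell 24_2. Of 5 notochord and somite markers tbx16, a T-box gene of the early mesoderm, had 119 to 343 FPKM in every cell at 6 and 11 hpf and at most 28.2 FPKM at 24 hpf, and shha had 15.5 FPKM in cell 24_2, while the other 3 were at 0 throughout. Erythroid markers reached 10 FPKM in no cell. The part of other cell types in the differences below was not tested. Between 24 and 11 hpf, counts over all members are also given without cells 24_1 and 24_2 and without cell 11_1. For the SR genes they are given without cells 24_1 and 24_2. Sm core counts without cells 24_1 and 24_2 are not given. Of the 13 germline markers kept, 10 (76.9%) were lower by at least 1 on the log2 scale at 24 than at 11 hpf, against 31.5% of all genes kept. An exact 0 was common and more frequent at each later stage, making up 23.1%, 29.0% and 37.8% of the values of kept genes at 6, 11 and 24 hpf. Among the members the shares were 4.69%, 3.65% and 18.8%, and some are genes that every cell uses, so 0 is reported only as listed.

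Between 11 and 24 hpf the members split by subgroup, with most Sm core genes higher and most SR genes lower at 24 hpf. A difference of at least 1 on the log2 scale in the upward direction was seen for 12 of 64 members (18.8%), against 26.1% of all genes kept, and in the downward direction for 23 members (35.9%), against 31.5%. In 11 members (17.2%) every cell at 24 hpf was above every cell at 11 hpf, against 8.62% of all genes kept, and in 10 members (15.6%) every cell at 24 hpf was below, against 10.2%. The median difference was −0.16 over the members and −0.08 over all genes kept, and 30 members were higher and 34 lower. Leaving out cell 11_3 brought the members' median to 0.0012, and leaving out cell 24_2 brought it to −0.34. The median of all genes kept moved in the same directions, to 0 and to −0.22. Counted as a whole, the members were therefore near the background in the size of their differences, and the description below follows the subgroups. Of the 23 lower members, 16 had at least 1 cell at 24 hpf listed at 0, a share of 69.6% against 86.8% of the 2936 genes lower among all kept, and 3 (lsm1, lsm11 and lsm14aa) were listed at 0 in all 3 cells. None of the 12 higher members had a cell listed at 0 at 11 hpf, against 76.0% of the 2438 genes higher among all kept. Over cells above 0 only, 13 members (20.3%) were higher and 15 (23.4%) lower by at least 1, against 26.0% and 27.6% of all genes kept. Without cells 24_1 and 24_2, which had the highest muscle levels, 12 (18.8%) were higher and 23 (35.9%) lower, against 25% and 42.3%. In both settings the share of lower members was thus below that of all genes, whereas with all cells it was above. Without cell 11_1, 12 (18.8%) were higher and 21 (32.8%) lower, against 28.8% and 29.6%. Whichever single cell was left out, 9 of the 12 higher and 14 of the 23 lower members stayed past 1. The same count was not made over all genes kept, so it has no background here. The others fell under 1 without a particular cell, namely prpf8, lsm7 and snrpd3l among the higher ones and lsm11, lsm14b, sf3a3, sf3b3, sf3b5, srsf5a, srsf6a, srsf6b and srsf11 among the lower ones.

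**Figure D1:**
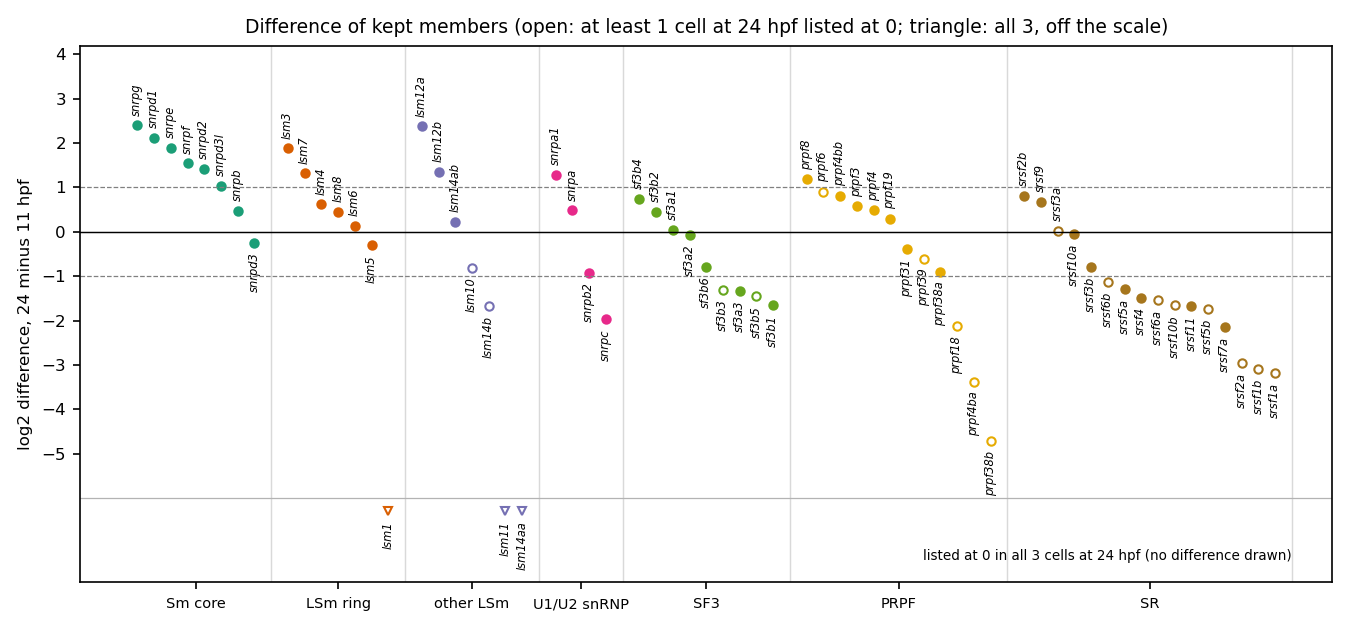
Difference in mean level between 24 and 11 hpf, on the log2(FPKM + 1) scale, for the kept members shown, arranged by subgroup. Filled points had no cell at 24 hpf listed at 0, open points had at least 1, triangles below the grey line mark the 3 members for which all cells of 24 hpf were at 0, and dashed lines show a difference of 1 in either direction. The Sm core stands mostly above 1 (6 of 8 genes, against 26.1% of all genes kept). The SR genes stand mostly below −1 (11 of 16 genes, against 31.5% of all genes kept).

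Between 11 and 6 hpf fewer members differed by at least 1, and the count of higher ones depended on cell 6_3. With all cells 4 of 64 members (6.25%) were higher by at least 1 at 11 hpf, against 21.7% of all genes kept, and 7 (10.9%) were lower, against 21.8%. Every cell at 11 hpf was above every cell at 6 hpf in 2 members (3.13%), against 5.78% of all genes kept, and below in 5 members (7.81%), against 6.96%. The median difference was 0.11 over the members and 0.03 over all genes kept. Without cell 6_3 the higher members numbered 16 (25%), close to the 26.2% of all genes kept. Without cell 6_1 or without cell 11_1 they numbered 7 (10.9%), against 24.4% and 21.8% of all genes, and the lower members numbered 11 (17.2%) without cell 11_3, against 26.9%. prpf6, one of the 7 lower members with a difference of −1.27, was at 2.40 without cell 6_3, so that its direction turned with that cell. The comparison of 24 with 6 hpf uses the same cells as the others, and there 12 members (18.8%) were higher by at least 1, against 27.5% of all genes kept, and 20 (31.3%) were lower, against 33.3%. In 8 members (12.5%) every cell at 24 hpf was above every cell at 6 hpf, against 10.4%, and in 16 members (25%) every cell was below, against 14.6%. Without cell 6_3 the higher members numbered 20 (31.3%), against 30.4%, so that their share was no longer below that of all genes. Members also varied less than most genes between cells of 1 embryo, with a median SD of log2(FPKM + 1) of 0.62, 0.76 and 0.63 at 6, 11 and 24 hpf, against 1.19, 1.44 and 1.48 over all genes kept. Their levels were also above those of most genes, with a median log2(FPKM + 1) between 5.68 and 6.59 in the 9 cells, against 1.47 to 3.99 over all genes kept.

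All members together held, in stage order, 1.87 ± 0.162%, 1.79 ± 0.192% and 2.24 ± 0.281% of the summed FPKM per cell (mean ± SD of the 3 cells of an embryo, as for all values given with an SD). This total hid movements in opposite directions. The Sm core held 0.723 ± 0.0890%, 0.638 ± 0.177% and 1.08 ± 0.167% at 6, 11 and 24 hpf, and its lowest cell at 24 hpf (0.929%) was above its highest at 11 hpf (0.839%). The LSm ring held 0.277 ± 0.0457%, 0.235 ± 0.0285% and 0.384 ± 0.0945%, again with no overlap between 24 hpf (lowest 0.297%) and 11 hpf (highest 0.267%). The SR genes held 0.219 ± 0.0451%, 0.252 ± 0.0269% and 0.107 ± 0.0330%, and their highest cell at 24 hpf (0.143%) was below their lowest at 11 hpf (0.221%). In the other subgroups the cells of 24 and 11 hpf overlapped. SF3 subunits held 0.161 ± 0.00978%, 0.235 ± 0.0642% and 0.225 ± 0.0348%, and the U1 and U2 proteins held 0.192 ± 0.0295%, 0.212 ± 0.0766% and 0.160 ± 0.0318%. The other LSm genes held 0.143 ± 0.0295%, 0.0820 ± 0.0271% and 0.152 ± 0.0463%. The PRPF genes stayed within 0.101% and 0.170% in all 9 cells.

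**Figure D2:**
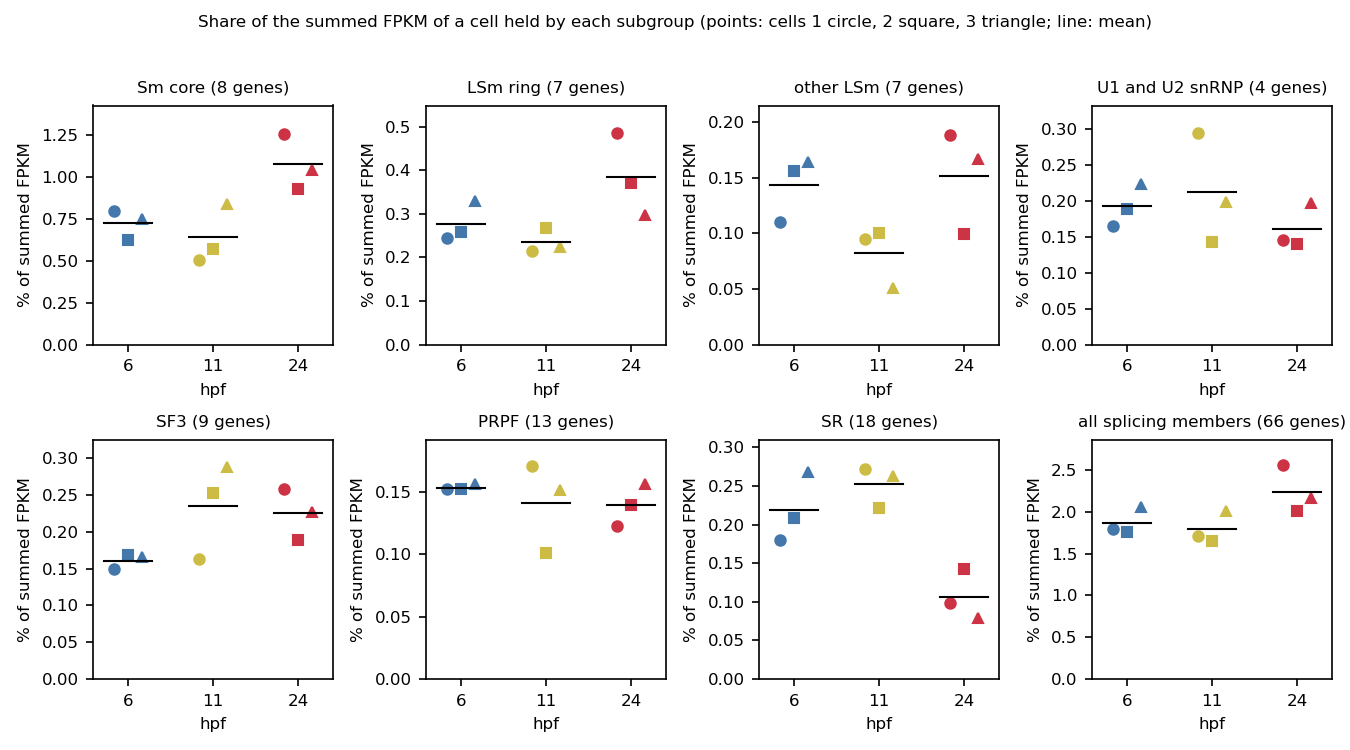
Percent of a cell's summed FPKM held by each subgroup of splicing genes, and by all 66 members, at 6, 11 and 24 hpf. Each point is 1 cell (circle, square and triangle for cells 1, 2 and 3) and each line is the mean of 3 cells of 1 embryo; Sm core cells at 24 hpf sit between 0.929% and 1.26%, above all at 11 hpf, and SR cells at 24 hpf sit between 0.0787% and 0.143%, below all at 11 hpf.

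The Sm core genes encode the proteins B, D1, D2, D3, E, F and G of the ring that every major spliceosomal snRNP except U6 carries. None of their 24 values at any stage was listed at 0. Their median difference between 24 and 11 hpf was 1.48, against −0.08 over all genes kept. Of the 8 genes 6 (75%) were higher by at least 1, against 26.1% of all genes kept. None was lower by that much, against 31.5%. In 5 (62.5%) every cell at 24 hpf was above every cell at 11 hpf, against 8.62%. Leaving out 1 cell at a time gave 5 or 6 genes higher by at least 1. snrpg, which encodes the smallest ring protein, had 105, 82.4 and 205 FPKM at 6 hpf, 41.9, 86.4 and 44.1 FPKM at 11 hpf and 353, 372 and 198 FPKM at 24 hpf. Every cell at 24 hpf was above every cell at 11 hpf, with a difference of 2.40 (spread 0.76). snrpd1, whose protein pairs with D2 during ring assembly, had 95.8, 117 and 138 FPKM at 6 hpf, 53.0, 139 and 218 FPKM at 11 hpf and 1017, 388 and 383 FPKM at 24 hpf. Its difference was 2.12 (spread 1.31), with cell 24_1 far above the other 2 cells of its stage and no overlap. snrpd2 had 449, 213 and 239 FPKM at 6 hpf, 446, 415 and 729.6 FPKM at 11 hpf and 1650.0, 1090.1 and 1522 FPKM at 24 hpf. It was the highest Sm core gene in cells 24_1 and 24_3, its stages did not overlap, and its difference was 1.42 (spread 0.54).

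The genes of the E, F and G subcomplex were all higher at 24 than at 11 hpf, but differed in direction between 11 and 6 hpf. snrpe had 412, 577 and 386 FPKM at 6 hpf, 180.3, 124 and 224 FPKM at 11 hpf and 1153, 369 and 444 FPKM at 24 hpf. At 11 hpf its cells lay below those of both other stages, with a difference of 1.89 (spread 0.98) for 24 minus 11 hpf and −1.38 (spread 0.53) for 11 minus 6 hpf. Without cell 24_1, its highest, the difference for 24 minus 11 hpf was 1.20. snrpf had 96.9, 71.0 and 109 FPKM at 6 hpf, 279, 46.0 and 223 FPKM at 11 hpf and 523, 646 and 438 FPKM at 24 hpf. Its 24 hpf cells did not overlap those of 11 hpf, where cell 11_2 stood far below the others, and the difference of 1.55 (spread 1.43) was close to its spread. Against 6 hpf the same gene differed by 2.52 (spread 0.42), the most of any Sm core gene. snrpb, which encodes protein B, had 314, 361 and 662 FPKM at 6 hpf, 271, 616 and 770.2 FPKM at 11 hpf and 678, 523 and 1109 FPKM at 24 hpf. Its stages overlapped, with a difference of 0.48 (spread 0.96) for 24 minus 11 hpf.

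Of the D3 genes, snrpd3 did not follow, and snrpd3l was higher at 24 than at 11 hpf only within its spread. snrpd3 (ENSDARG00000013800), the gene with the highest mean over the 9 cells of all members (1585 FPKM), had 2435, 1747 and 1974 FPKM at 6 hpf, 1355, 1455 and 1591 FPKM at 11 hpf and 1158, 1487 and 1058 FPKM at 24 hpf. Its level at 11 hpf was below that at 6 hpf in every cell, by −0.48 (spread 0.27), and at 24 hpf it overlapped 11 hpf, with a difference of −0.25 (spread 0.28). Of all Sm core genes only snrpd3 had a lower mean at 24 than at 11 hpf. snrpd3l, a second gene for D3, had 655, 498 and 436 FPKM at 6 hpf, 159, 325 and 806 FPKM at 11 hpf and 1179.6, 626 and 855 FPKM at 24 hpf. Its 24 minus 11 hpf difference was 1.04 (spread 1.25), within its spread and with overlapping cells, and it was 0.65 without cell 11_1 and 1.87 without cell 11_3. Any reads that fit both D3 genes may have been assigned to either, which was not checked, so their sum is the safer value. Under the rescaling to a common total per cell (TPM), or with median-of-ratios factors, the count of Sm core genes higher by at least 1 was 5 rather than 6.

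**Figure D3:**
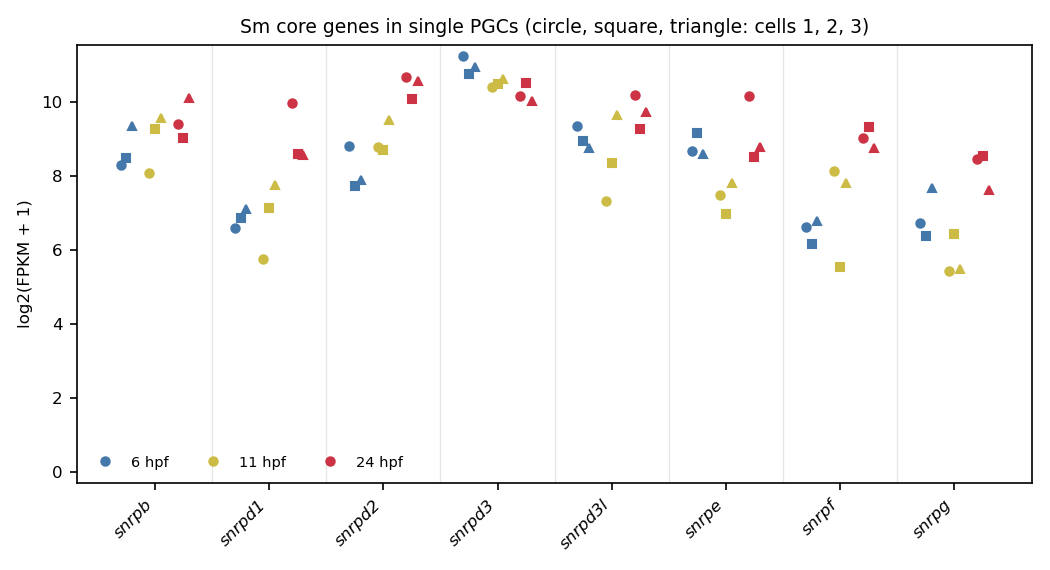
Level of each Sm core gene as log2(FPKM + 1) in the 9 cells, coloured by stage (6, 11 and 24 hpf) with a circle, square and triangle for cells 1, 2 and 3. In snrpd1, snrpd2, snrpe, snrpf and snrpg all cells at 24 hpf lie above all cells at 11 hpf, whereas in snrpd3 they overlap.

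With the 2 D3 genes counted as separate genes, the levels of the Sm genes were more even at 24 hpf than before. The proteins enter the ring in equal numbers, yet the highest Sm core gene exceeded the lowest by 25.4, 24.6 and 18.1 times in the 6 hpf cells, by 32.3, 31.7 and 36.1 times in the 11 hpf cells and by only 4.68, 4.03 and 7.69 times in the 24 hpf cells. In every cell at 6 and 11 hpf the highest gene was snrpd3. Among the 6 genes outside the D3 pair the highest and lowest were 449 and 95.8, 577 and 71.0, and 662 and 109 FPKM in the 6 hpf cells. In the 11 hpf cells they were 446 and 41.9, 616 and 46.0, and 770 and 44.1 FPKM. In the 24 hpf cells they were 1650 and 353, 1090 and 369, and 1522.5 and 198 FPKM. Among these 6 genes, cells of 6 and 24 hpf thus overlapped in evenness. snrpd3 alone made up 49.5 ± 3.31% of the Sm core FPKM at 6 hpf, 42.9 ± 7.37% at 11 hpf and 19.9 ± 6.32% at 24 hpf. With snrpd3l added, the D3 share was 67.7%, 61.2% and 58.1% in the 6 hpf cells, 54.3%, 55.5% and 52.0% in the 11 hpf cells and 30.3%, 38.4% and 31.8% in the 24 hpf cells. The share thus did not overlap between any 2 stages. Whether the D3 genes or the others moved was read from their shares of the whole cell, a split that was chosen after the values were seen. The other 6 Sm genes held 0.271 ± 0.0375%, 0.296 ± 0.0931% and 0.720 ± 0.152% of a cell's FPKM at 6, 11 and 24 hpf, whereas the D3 pair held 0.452 ± 0.0802%, 0.343 ± 0.0841% and 0.357 ± 0.0247%. The summed share of the other 6 genes was thus higher at 24 than at 11 hpf, and that of the D3 pair was similar. Neither group was uniform. Among the 6, snrpb differed by only 0.48 with overlap. Within the pair, snrpd3 had a lower and snrpd3l a higher mean at 24 hpf.

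**Figure D4:**
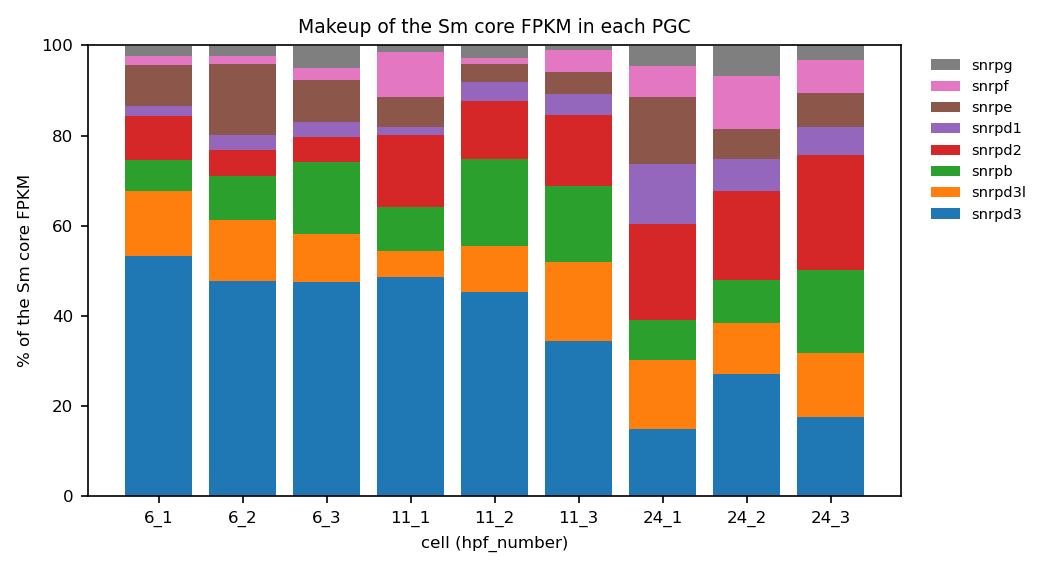
Makeup of the Sm core in each cell, as the percent of the summed Sm core FPKM held by each of the 8 genes (stacked bars, 1 per cell, labelled by stage and cell number). snrpd3 with snrpd3l fills between 52.0% and 67.7% of the bars at 6 and 11 hpf and between 30.3% and 38.4% at 24 hpf.

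The LSm ring genes lsm3 to lsm7 encode proteins shared by a nuclear ring on U6, which lsm8 completes, and a cytoplasmic ring for mRNA decay, which lsm1 completes. The genes that complete the rings differed at 24 hpf. lsm1 (ENSDARG00000043177) had 309, 425 and 152 FPKM at 6 hpf, 140.1, 86.6 and 193 FPKM at 11 hpf and 0, 0 and 0 FPKM at 24 hpf. It was thus at 86.6 FPKM or more in every cell at 6 and 11 hpf and listed at 0 in every cell at 24 hpf, for which no fold is given. lsm8, its nuclear counterpart, had 62.4, 81.3 and 256 FPKM at 6 hpf, 243, 115 and 177 FPKM at 11 hpf and 214, 278 and 245 FPKM at 24 hpf. Its stages overlapped, and its lowest cell at 24 hpf was still at 214 FPKM. Of the shared proteins, lsm3 had 183, 260.3 and 278 FPKM at 6 hpf, 72.8, 294 and 232 FPKM at 11 hpf and 1075, 517 and 623 FPKM at 24 hpf. Its cells at 24 hpf did not overlap those of either earlier stage, and the difference was 1.88 (spread 1.20). lsm4 differed little but evenly, with 393, 357 and 409 FPKM at 6 hpf, 221, 297 and 296 FPKM at 11 hpf and 445, 381 and 427 FPKM at 24 hpf and a difference of 0.62 (spread 0.27) for 24 minus 11 hpf without overlap. lsm7 had 165, 132 and 349 FPKM at 6 hpf, 261, 326 and 166 FPKM at 11 hpf and 937, 636 and 309.9 FPKM at 24 hpf. Its difference of 1.32 (spread 0.95) came with overlap, since cell 24_3 was below cell 11_2, and it was 0.91 without cell 24_1. lsm5 and lsm6 differed by −0.31 and 0.13 with spreads of 4.06 and 1.70, and lsm5 was listed at 0 in cell 11_3.

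The other LSm genes serve different particles. lsm10 and lsm11 encode the ring proteins particular to the U7 snRNP, which processes the ends of histone mRNAs. lsm11 had 50.7, 126 and 13.8 FPKM at 6 hpf, 0, 26.5 and 0 FPKM at 11 hpf and 0, 0 and 0 FPKM at 24 hpf. It was thus above 0 in all cells at 6 hpf and in cell 11_2 only at 11 hpf, and listed at 0 in the other 5. lsm10 had 7.01, 24.5 and 0 FPKM at 6 hpf, 43.9, 31.1 and 38.6 FPKM at 11 hpf and 40.8, 22.8 and 0 FPKM at 24 hpf. Its cells at 11 hpf thus lay above those at 6 hpf, while those at 24 hpf were scattered. The difference for 11 minus 6 hpf was 1.75 (spread 2.38), with 1.21 without cell 6_3 and 3.11 without cell 6_2. The lsm14 genes belong to the RAP55 family, whose proteins sit on stored and repressed mRNAs. lsm14b, known in mouse for its role in oocytes, had 167, 221 and 357 FPKM at 6 hpf, 86.4, 58.3 and 0 FPKM at 11 hpf and 0, 0 and 43.1 FPKM at 24 hpf. All its cells at 11 hpf were below those at 6 hpf, and 2 cells at 24 hpf were listed at 0. The copies lsm14aa and lsm14ab parted at 24 hpf. lsm14aa had 5.55, 11.4 and 23.8 FPKM at 6 hpf, 28.9, 23.6 and 10.4 FPKM at 11 hpf and 0, 0 and 0 FPKM at 24 hpf. lsm14ab had 0, 1.03 and 5.23 FPKM at 6 hpf, 6.96, 30.7 and 20.4 FPKM at 11 hpf and 25.2, 24.1 and 19.1 FPKM at 24 hpf. The second copy was thus higher at 11 than at 6 hpf in every cell, by 2.72 (spread 1.68), and its cells at 24 hpf overlapped those at 11 hpf, while the first was listed at 0 throughout 24 hpf.

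lsm12a and lsm12b encode an LSm protein outside the rings. lsm12b, the higher copy, had 379.8, 527 and 509.8 FPKM at 6 hpf, 348, 387 and 206 FPKM at 11 hpf and 1049, 519 and 850.5 FPKM at 24 hpf. Its cells at 24 hpf did not overlap those at 11 hpf, by 1.36 (spread 0.71), but overlapped those at 6 hpf. lsm12a had 18.0, 6.91 and 1.90 FPKM at 6 hpf, 10.5, 4.29 and 3.89 FPKM at 11 hpf and 39.8, 23.1 and 47.1 FPKM at 24 hpf. It differed by 2.38 (spread 0.86) in the same direction without overlap, at a mean level that was 30.7 times lower than that of lsm12b over the 9 cells.

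The U1 and U2 protein genes differed in both directions. snrpa encodes the A protein of U1, and it had 145, 199 and 349 FPKM at 6 hpf, 386, 341 and 243 FPKM at 11 hpf and 414, 406 and 538 FPKM at 24 hpf. All cells at 24 hpf were above all at 11 hpf, by 0.48 (spread 0.41). snrpc encodes the C protein of U1, which helps U1 to hold the start of an intron, and it had 258, 463 and 345 FPKM at 6 hpf, 429, 137 and 394 FPKM at 11 hpf and 36.5, 67.9 and 138 FPKM at 24 hpf. Its mean was lower at 24 hpf by a difference of −1.97 (spread 1.31), but cell 24_3 at 137.6 FPKM was just above cell 11_2 at 137.1 FPKM, so the stages overlapped. Against 6 hpf every cell at 24 hpf was lower, by −2.12 (spread 1.03). The genes for these 2 proteins of the same U1 particle therefore differed in the direction of their mean transcript levels. Of the U2 pair, snrpa1 (protein Aʹ) had 148, 134 and 73.2 FPKM at 6 hpf, 88.6, 46.9 and 79.2 FPKM at 11 hpf and 233, 64.7 and 227 FPKM at 24 hpf, and its difference of 1.28 (spread 1.15) came with overlap because of cell 24_2. snrpb2 (protein Bʹʹ) had 394, 311 and 473 FPKM at 6 hpf, 721, 277 and 369 FPKM at 11 hpf and 204, 286 and 232 FPKM at 24 hpf, with a difference of −0.92 (spread 0.75) and overlap.

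The SF3a and SF3b subunits, which anchor the U2 snRNP at the branch point, had a median difference of −0.79 between 24 and 11 hpf. By at least 1, 0 of 9 were higher and 4 (44.4%) lower, against 26.1% and 31.5% of all genes kept. The 4 lower ones (sf3b1, sf3b5, sf3a3 and sf3b3) each had 1 or 2 low cells at 24 hpf, and all overlapped 11 hpf. The difference fell under 1 for sf3a3 without cell 11_1 (−0.72), for sf3b5 without cell 11_2 (−0.37) and for sf3b3 without cell 24_3 (−0.79). sf3b1, the large subunit that closes around the branch point, had 24.7, 17.9 and 19.8 FPKM at 6 hpf, 22.3, 67.8 and 32.7 FPKM at 11 hpf and 0.0606, 24.1 and 12.8 FPKM at 24 hpf. Its cell 24_1 was near 0 while cell 24_2 lay within the range of 11 hpf. sf3a3 showed the same kind of scatter, with 64.9, 105 and 101 FPKM at 6 hpf, 173, 112 and 22.1 FPKM at 11 hpf and 64.9, 55.7 and 0.191 FPKM at 24 hpf. sf3b5 had 129, 94.3 and 73.9 FPKM at 6 hpf, 39.0, 361 and 125 FPKM at 11 hpf and 179, 0 and 9.99 FPKM at 24 hpf, and sf3b3 was listed at 0 in cell 24_3 and had 17.1 and 1.47 FPKM in cells 24_1 and 24_2, against 12.4, 15.0 and 23.1 FPKM at 11 hpf. sf3b4, the highest subunit gene, moved the other way and had 234, 439 and 175 FPKM at 6 hpf, 302, 416 and 595 FPKM at 11 hpf and 785, 672 and 749 FPKM at 24 hpf. Its 24 hpf cells were tightly grouped and above all others, with a difference of 0.75 (spread 0.50) against 11 hpf and 1.38 (spread 0.69) against 6 hpf. sf3a2, the second highest, had 139, 92.1 and 202 FPKM at 6 hpf, 189.7, 196 and 311 FPKM at 11 hpf and 197, 235 and 234 FPKM at 24 hpf and a difference of −0.06 (spread 0.42). sf3a1, sf3b2 and sf3b6 overlapped as well, with differences between −0.79 and 0.45. Within SF3 the median SD over cells of log2(FPKM + 1) was 1.92 at 24 hpf, against 0.80 at 11 hpf and 0.56 at 6 hpf.

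Among the 13 PRPF genes the median difference between 24 and 11 hpf was 0.29, with 1 (7.69%) higher and 3 (23.1%) lower by at least 1. Over all genes kept these shares were 26.1% and 31.5%. The higher one was prpf8, the centre of the U5 snRNP and of the catalytic core, which had 32.3, 30.2 and 5.83 FPKM at 6 hpf, 20.6, 3.48 and 13.4 FPKM at 11 hpf and 53.1, 13.7 and 22.2 FPKM at 24 hpf. Its difference was 1.18 (spread 1.51), the stages overlapped, and without cell 24_1 it was 0.49. prpf4, a protein of the U4/U6 snRNP and the highest PRPF gene, had 268, 102 and 175 FPKM at 6 hpf, 279, 192 and 173 FPKM at 11 hpf and 259, 349 and 295 FPKM at 24 hpf and a difference of 0.49 (spread 0.42). prpf19, a ubiquitin ligase of the activated spliceosome, had 48.0, 137 and 231 FPKM at 6 hpf, 207, 68.8 and 197 FPKM at 11 hpf and 114, 229.7 and 232 FPKM at 24 hpf, with overlapping stages. The lower ones were prpf38b, prpf4ba and prpf18. prpf18, a factor of the second catalytic step, had 50.2, 122 and 43.5 FPKM at 6 hpf, 53.3, 39.8 and 27.5 FPKM at 11 hpf and 0, 0 and 25.2 FPKM at 24 hpf. prpf38b had 18.8, 41.2 and 21.4 FPKM at 6 hpf, 0, 27.5 and 55.1 FPKM at 11 hpf and 0, 0.253 and 0 FPKM at 24 hpf, so that against 6 hpf every cell at 24 hpf was lower, by −4.70 (spread 0.62). prpf4ba, a copy of the kinase gene prpf4b, had 11.7, 20.4 and 0 FPKM at 6 hpf, 22.6, 3.76 and 3.84 FPKM at 11 hpf and 0, 0.196 and 0 FPKM at 24 hpf, whereas its copy prpf4bb had 24.4, 14.9 and 26.0 FPKM at 6 hpf, 18.1, 33.8 and 19.4 FPKM at 11 hpf and 30.2, 9.86 and 87.8 FPKM at 24 hpf. The first copy was lower in every cell at 24 than at 11 hpf, and the second was not. prpf38a, whose protein joins before activation, was the PRPF gene without overlap between 11 and 6 hpf, with 274, 257 and 219 FPKM at 6 hpf, 189.9, 89.6 and 21.3 FPKM at 11 hpf and 34.5, 54.8 and 70.3 FPKM at 24 hpf. All cells at 11 and at 24 hpf were below all at 6 hpf, by −1.31 (spread 1.58) and −2.21 (spread 0.54). The first of these was within its spread and came to −0.84 without cell 11_3. The U4/U6 genes prpf3 and prpf31, the U5 gene prpf6 and the U1-associated gene prpf39 overlapped between all stages.

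The SR genes had the most members on the lower side. Between 24 and 11 hpf their median difference was −1.51, against −0.08 over all genes kept. Of the 16 kept genes 11 (68.8%) were lower by at least 1, against 31.5% of all genes kept. None was higher by that much, against 26.1%. In 6 (37.5%) every cell at 24 hpf was below every cell at 11 hpf, against 10.2%. Between 11 and 6 hpf the median was 0.08, against 0.03 over all genes kept. Only srsf11 (6.25%) was higher by at least 1, through cell 11_1, and none was lower by that much. Over all genes kept these shares were 21.7% and 21.8%. srsf7a (ENSDARG00000035325), whose protein also links splicing with mRNA export, had 178, 192 and 125 FPKM at 6 hpf, 157, 109.5 and 159 FPKM at 11 hpf and 26.3, 39.3 and 28.2 FPKM at 24 hpf. Its cells at 24 hpf were at most 39.3 FPKM and those of the earlier stages at least 109.5 FPKM, with a difference of −2.15 (spread 0.43) against 11 hpf and −2.36 (spread 0.45) against 6 hpf. None of its 9 values was listed at 0, and this was the largest difference among SR genes of which that held. srsf5a, the SR gene with the highest mean, had 352, 261 and 179 FPKM at 6 hpf, 258, 223 and 318 FPKM at 11 hpf and 71.2, 199.9 and 54.5 FPKM at 24 hpf. All its cells at 24 hpf were below all at 11 hpf, by −1.29 (spread 1.01), though cell 24_2 reached above the lowest cell at 6 hpf and the difference was −0.97 without cell 24_3. srsf11 had 57.2, 76.1 and 90.2 FPKM at 6 hpf, 333, 79.7 and 88.9 FPKM at 11 hpf and 75.6, 46.1 and 34.4 FPKM at 24 hpf, again with no overlap between 24 and 11 hpf and a difference of −1.66 (spread 1.27). Its other 2 cells at 11 hpf lay within the range of 6 hpf, and without cell 11_1 the differences were −0.69 for 24 minus 11 hpf and 0.18 for 11 minus 6 hpf, both under 1. srsf4 had 113, 152 and 133 FPKM at 6 hpf, 171, 219 and 67.9 FPKM at 11 hpf and 35.9, 70.7 and 55.3 FPKM at 24 hpf, and its difference of −1.48 (spread 1.01) came with overlap of cells 24_2 and 11_3.

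The largest SR differences were those with cells listed at 0. srsf1a encodes a copy of SRSF1, the founding member of the family, and had 50.0, 60.0 and 146 FPKM at 6 hpf, 77.0, 90.0 and 71.8 FPKM at 11 hpf and 0, 2.16 and 21.4 FPKM at 24 hpf. No cell at 24 hpf reached the lowest cell of the earlier stages (50.0 FPKM), and the difference was −3.18 (spread 2.28). Leaving out cell 24_3 moved that difference to −5.28 and leaving out cell 24_1 to −2.65, so its size depends on single cells. Its lower copy srsf1b had 0, 8.57 and 34.8 FPKM at 6 hpf, 8.81, 11.4 and 12.3 FPKM at 11 hpf and 1.21, 0 and 0 FPKM at 24 hpf, which gave −3.08 (spread 0.70). srsf2a, a copy of the gene for SRSF2 (SC35), had 39.7, 38.3 and 73.0 FPKM at 6 hpf, 42.1, 54.2 and 70.9 FPKM at 11 hpf and 0, 19.0 and 0 FPKM at 24 hpf and a difference of −2.95 (spread 2.52). Leaving out cell 24_2, the single cell above 0 at that stage, moved that difference to −5.83, and leaving out cell 24_1 moved it to −2.43. Its size thus depended on cell 24_2. Its direction could not turn when a cell was left out, since the 2 stages did not overlap. In all, 13 of 48 SR values (27.1%) were listed at 0 at 24 hpf, against 1 (2.08%) at 11 hpf and 4 (8.33%) at 6 hpf. Over all genes kept these shares were higher, at 37.8%, 29.0% and 23.1%. Of the 11 lower SR genes 7 (63.6%) had a cell listed at 0 at 24 hpf, against 86.8% of the lower genes among all kept. The lower SR genes srsf7a, srsf4, srsf5a and srsf11 had none. When stage means were taken over cells above 0 only, 7 of the 16 SR genes (43.8%) were lower by at least 1, against 27.6% of all genes kept, with a median difference of −0.80. Without cells 24_1 and 24_2, which had the highest muscle levels, 9 (56.3%) were lower, with a median of −1.65. Over all genes kept the values were 42.3% and −0.44. The part of missed transcripts in these differences was not tested.

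**Figure D5:**
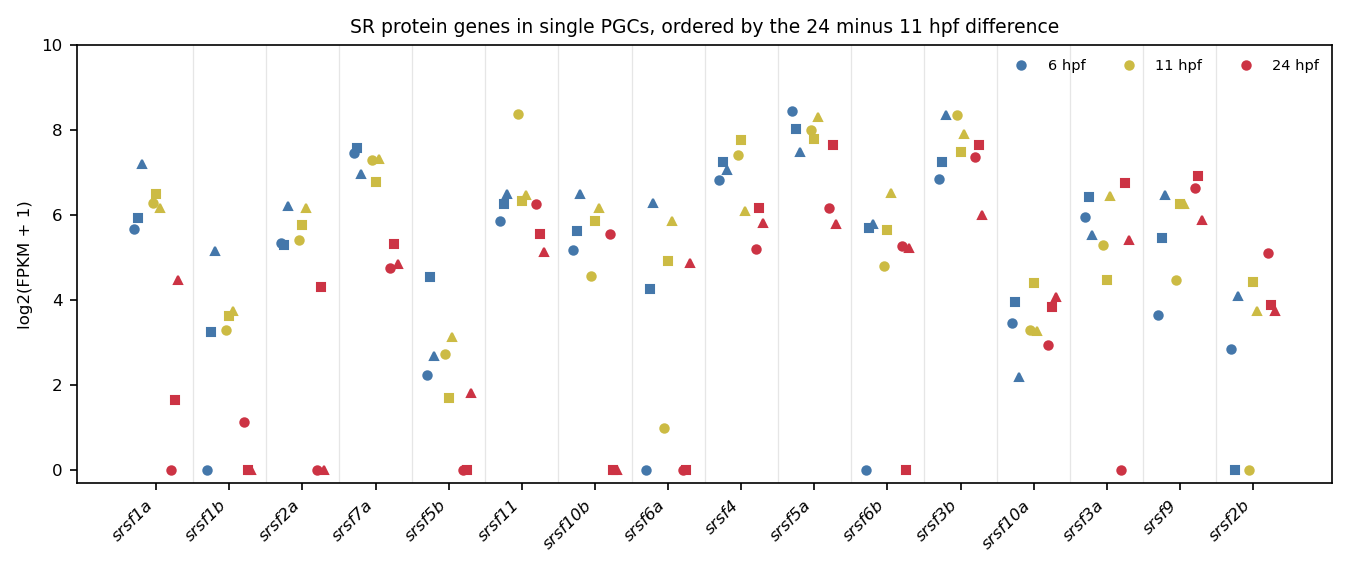
Level of each of the 16 kept SR genes as log2(FPKM + 1) in the 9 cells, ordered by the 24 minus 11 hpf difference and coloured by stage (circle, square and triangle for cells 1, 2 and 3). In srsf1a, srsf1b, srsf2a, srsf7a, srsf11 and srsf5a all cells at 24 hpf lie below all cells at 11 hpf, and points on the line at 0 are values listed at 0.

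Of the 16 kept SR genes, 13 had a lower mean at 24 than at 11 hpf and 3 a higher one. Those described next differed by under 1 or overlapped 11 hpf. srsf3b, the second highest SR gene and a copy of the gene for the smallest SR protein, had 115, 153 and 330.1 FPKM at 6 hpf, 328, 178 and 241 FPKM at 11 hpf and 165, 201 and 63.1 FPKM at 24 hpf. Its stages overlapped, with a difference of −0.79 (spread 0.99). srsf3a had 61.0, 85.5 and 45.4 FPKM at 6 hpf, 38.8, 21.3 and 87.4 FPKM at 11 hpf and 0, 108 and 41.7 FPKM at 24 hpf and a difference of 0.02 (spread 3.72), its cells at 24 hpf running from 0 to above all others. srsf9 had 11.5, 43.5 and 88.0 FPKM at 6 hpf, 21.2, 76.0 and 76.5 FPKM at 11 hpf and 99.2, 121 and 58.4 FPKM at 24 hpf, with a higher mean at 24 hpf and overlap. srsf10a, whose human counterpart acts as a repressor when dephosphorylated, lay between 3.58 and 20.1 FPKM in all cells. srsf10b, srsf6a, srsf6b and srsf5b were lower by 1.65, 1.54, 1.13 and 1.75 on the log2 scale, each with at least 1 cell at 24 hpf listed at 0 and each overlapping 11 hpf. The differences of srsf6a and srsf6b fell under 1 without cell 11_3 (−0.63) and without cell 24_2 (−0.57). That of srsf10b came to −1.10 without cell 24_2 and −5.69 without cell 24_1. For srsf5b it was −1.42 without cell 11_3 and −2.64 without cell 24_3.

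Copies of 1 gene, which zebrafish often retains from an ancestral genome duplication, were kept for 9 of 10 gene names with a and b forms. Their levels differed by over 4-fold in 4 pairs, with lsm12b 30.7 times above lsm12a, srsf5a 38.4 times above srsf5b, srsf1a 6.73 times above srsf1b and prpf4bb 4.24 times above prpf4ba, as means over the 9 cells. Between 24 and 11 hpf the copies of lsm12, srsf1, srsf5 and srsf6 had the same sign, and those of srsf10 did too, although srsf10a differed by only −0.06. The copies of lsm14a, prpf4b, srsf2 and srsf3 had opposite signs. In srsf2 the lower copy srsf2b had 6.28, 0 and 16.0 FPKM at 6 hpf, 0, 20.6 and 12.4 FPKM at 11 hpf and 33.8, 13.9 and 12.4 FPKM at 24 hpf, a difference of 0.81 (spread 2.50), so that at 24 hpf it was above srsf2a in cells 24_1 and 24_3 while srsf2a was the higher in every cell at 6 and 11 hpf. Reads that fit both copies may have been given to either. With copies summed, 8 of 10 SR genes (80%) were lower by at least 1, against 11 of 16 (68.8%) with copies apart. Over all genes kept these shares were 31.4% and 31.5%.

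The opposite courses of the Sm core and the SR genes can be read within each cell, where no scaling between cells enters. The summed FPKM of the Sm core divided by that of the SR genes was 4.42, 2.99 and 2.78 in the 6 hpf cells, 1.86, 2.58 and 3.19 in the 11 hpf cells and 12.8, 6.49 and 13.3 in the 24 hpf cells. The quotient at 24 hpf was thus above every earlier cell, and the lowest at that stage was that of cell 24_2. Its mean was 10.8 ± 3.77 at 24 hpf and 2.54 ± 0.666 at 11 hpf, a ratio of 4.26. Leaving out 1 cell at a time gave ratios between 3.76 and 5.12. Cell 24_3 alone, the cell at 24 hpf with the lowest summed muscle level (11.0 FPKM), gave 5.21. This quotient was formed after the values of both subgroups were known and describes these 9 cells.

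Splicing genes outside the symbol rule were as often higher as lower at 24 hpf. Of 144 such genes in 7 lists, 134 were kept, and between 24 and 11 hpf 67 were higher and 67 lower, 19 (14.2%) and 32 (23.9%) of them by at least 1, against 26.1% and 31.5% of all genes kept, with a median of 0.01. Among the other U snRNP and tri-snRNP genes (23 kept) 4 (17.4%) were higher and 6 (26.1%) lower by at least 1. snrnp27, a protein of the U4/U6.U5 tri-snRNP, had 634, 553 and 456 FPKM at 24 hpf, against 54.4, 136 and 346 FPKM at 11 hpf, and usp39, which the same particle carries, had 232, 164 and 206 FPKM at 24 hpf, against 0, 129.8 and 74.9 FPKM at 11 hpf. snrnp25, of the U11 particle of the minor spliceosome, was at 0 in the 3 cells of 24 hpf, against 26.4, 22.2 and 103 FPKM at 11 hpf. Among branch point and 3ʹ splice site factors (18 kept) 2 (11.1%) were higher and 3 (16.7%) lower. Of these, dhx15, a helicase that takes spliceosomes apart, had 104, 143 and 73.0 FPKM at 24 hpf, against 9.21, 30.4 and 27.9 FPKM at 11 hpf. Of the genes of the prpf19 complex and the catalytic steps (35 kept) 4 (11.4%) were higher and 8 (22.9%) lower. Among the lower ones bcas2, a core protein of that complex, had 0, 87.0 and 37.9 FPKM at 24 hpf, against 232, 141 and 187 FPKM at 11 hpf.

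The genes that load Sm rings onto snRNA (the SMN complex and Sm methylation, 14 kept) split evenly. By at least 1, 5 (35.7%) were higher and 5 (35.7%) lower, against 26.1% and 31.5% of all genes kept. smn1, which encodes the protein that gives the complex its name, had 250.5, 271 and 191 FPKM at 24 hpf, against 119.6, 160.3 and 155 FPKM at 11 hpf. Its stages did not overlap, but its difference of 0.71 was under 1. phax, an export adaptor of snRNA, had 81.4, 85.7 and 85.0 FPKM at 24 hpf, against 173, 218 and 178 FPKM at 11 hpf, and snupn, which carries finished snRNPs back to the nucleus, was at 0 in the 3 cells of 24 hpf, against 82.2, 146 and 38.6 FPKM at 11 hpf. Kinases and SR-like regulators (12 kept) had 0 higher and 5 (41.7%) lower. Among the lower ones was clk4a, a kinase of SR proteins, with 166, 0 and 62.4 FPKM at 24 hpf, against 240.1, 190.4 and 282 FPKM at 11 hpf. Of the exon junction complex genes (8 kept) 1 (12.5%) was higher and none lower. The partner genes magoh and rbm8a differed in direction. magoh had 1126, 545 and 669 FPKM at 24 hpf, against 379, 321 and 390.5 FPKM at 11 hpf. rbm8a had 299, 468 and 442 FPKM at 24 hpf, against 692, 642 and 899 FPKM at 11 hpf. Of the hnRNP genes (24 kept), which often counter SR proteins, 3 (12.5%) were higher and 5 (20.8%) lower. Among the lower ones hnrnpd had 28.2, 7.32 and 37.9 FPKM at 24 hpf, against 59.1, 126 and 165 FPKM at 11 hpf.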

How the data were processed

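Single PGCs were sequenced as Smart-seq2 libraries, 3 cells from 1 embryo at each of 6, 11 and 24 hpf. The authors aligned Trimmomatic-cleaned reads to danRer10 (HISAT2 2.0.5), estimated expression over the Ensembl 89 annotation (StringTie 1.3.3) and deposited an FPKM value per gene and cell. Only these FPKM values were used, and how many reads each of them rests on was not worked out. The paper lists read pairs for each library, with the most for cell 24_3 and the fewest for cell 11_1. Whether these fragments were counted by strand is not given in the sources used here.

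Values were computed with Python 3.11.15, numpy 2.4.6 and pandas 2.3.3, and plots used matplotlib 3.10.9. A gene was kept when 3 or more cells reached an FPKM of 1, and the pseudocount was 1. Stages were compared by the difference of log2 means, by a fixed difference of 1 on that scale, and by whether cells overlapped, without p-values, since a stage is 1 embryo. The code was tested on simulated data. The members, subgroups and lists of other splicing genes and of markers were chosen with earlier results of these data known. Values in every cell were given for up to 6 members per comparison and direction that reached an FPKM of 1 in every cell of the higher stage, with a difference of at least 1 and no overlap; for the 2 highest members of each subgroup; and for copies of opposite sign or levels over 4-fold apart. Some members outside this rule were named after their values were seen. From each list of other genes, up to 3 examples without overlap were allowed. These were not always the largest differences, since gemin6 and ddx23 differed more than smn1 and usp39 of the same lists but were not shown. By gene ID 64 members matched a table of gene symbols, 51 under the same symbol. Alternatives were no filter, a minimum of 5 FPKM, pseudocounts of 0.1 and 10, TPM, median-of-ratios factors, means of log values, summed copies, leaving out members listed at 0 throughout a stage, and leaving out each cell. Leaving out both cells at 24 hpf with high muscle levels (24_1 and 24_2), and means over cells above 0, were chosen after seeing the data. No sequences or coordinates were used here. The values of 1 member are not reported here, though it counts in the totals.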

Additional observations from a re-analysis of the deposited data

How the results depend on the processing

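Of 280 alternative values of the medians, counts and the Sm core to SR quotient, 57 could not change, because the setting touches no cell or step that they use. Of the other 223, 213 stayed within 1.5 times the reported count or within the spread between cells, and 10 moved. A reversal was scored only for reported log2 differences of at least 1 in size. Here only the Sm core and SR medians could show one, and neither did. The medians of all members were under 1 and changed sign when some single cells were left out. They ran from −0.062 to 0.27 for 11 minus 6 hpf and from −0.31 to 0.0097 for 24 minus 6 hpf. Those of all genes kept ran from −0.031 to 0.084 and from −0.30 to −0.0086. The median of the members for 24 minus 11 hpf was −0.30 without both cells at 24 hpf with high muscle levels, against −0.44 over all genes kept. It was so above that background rather than below it as with all cells (−0.16 against −0.08). When 1 cell was left out the members' median lay between −0.34 and 0.0012, and that of all genes kept between −0.25 and 0. Over cells above 0 only, 15 members and 7 SR genes were lower by at least 1 at 24 than at 11 hpf, against 23 and 11 with all cells. These means use fewer cells by construction. With 1 cell left out, the members higher at 11 than at 6 hpf numbered between 4 and 16, those lower between 5 and 11, and those higher at 24 than at 6 hpf between 10 and 20; the cause was not tested. The Sm core median for 24 minus 11 hpf stayed between 1.18 and 1.79, and the SR median between −1.51 and −1.24. Of 372 values of single named members that a setting could change, 24 moved and 0 reversed. The moves came chiefly under pseudocounts of 0.1 and 10, in members listed at 0. These members were picked for no overlap between stages, so leaving out cells or changing the pseudocount could not reverse them. prpf6, which was not among them, went from −1.27 to 2.40 for 11 minus 6 hpf without cell 6_3. Median-of-ratios factors shifted the median of all genes by −0.10 for 24 minus 11 hpf and by −0.22 for 24 minus 6 hpf. No paired analysis was possible because the cell numbers name unrelated cells of different embryos. With 1 embryo a stage, differences between stages and between embryos cannot be told apart, and without read counts the counting error of low genes is unknown.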
